A study of Mus musculus with 16 samples.

Results

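The platelet-derived growth factor (PDGF) genes of the mouse were followed through 16 bulk RNA-seq libraries of transplanted glioblastoma, the most aggressive glioma of the adult brain. The set was chosen by gene symbol and held all 6 PDGF genes, the receptor genes Pdgfra and Pdgfrb and the ligand genes Pdgfa, Pdgfb, Pdgfc and Pdgfd, out of 26466 genes in the deposited table. All 6 passed the filter on low values. The groups were 4 Type 2 TAM depleted, 4 Type 2 Control, 3 Type 1 TAM depleted and 5 Type 1 Control tumours. Type 1 and Type 2 are the submitters' names for their pair of lineage-based models. TAMs are tumour-associated macrophages, the macrophages and microglia living inside a tumour. How they were depleted, what the controls received, the lineage and alleles of each model, and the strain, sex and age of the host mice were not stated in the labels. The description of Type 2 Control 4 holds the term NG2Con, whose meaning was not given. Each library is called by its group and replicate number, but no label says which tumours came from separate mice. The p-values therefore set differences between group means against the spread among these samples, and that spread may be technical.

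PDGF ligands are secreted dimers that bring receptor tyrosine kinases together on the cell surface and so start signalling through RAS and ERK, PI3 kinase, phospholipase C gamma and STAT proteins. The alpha receptor binds the A, B and C chains, and the beta receptor binds mainly the B and D chains. In the brain the alpha receptor marks oligodendrocyte precursors and drives their division, while B chain from endothelial cells holds pericytes, which carry the beta receptor, on the vessel wall. PDGFRA is among the receptor genes most often amplified in human glioma, and PDGF ligands are used to start gliomas in mice.

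Depth, background and macrophage markers differed between the libraries. Recovered reads ranged from 4.21 to 18.3 M (1 M is 1000000) per library, and the PDGF genes held from 15 reads (Pdgfd in Type 1 Control 4 and 5) to 3945 reads (Pdgfra in Type 2 Control 2). In 9 libraries the 997 olfactory and vomeronasal receptor genes, which brain tumours are not known to use, took 2717 to 8650 of each M reads, and in the other 7 they took 97.0 to 811. These are called high-background and low-background libraries. All 5 Type 1 Control libraries were high-background and all 3 Type 1 TAM depleted libraries were low-background, so treatment and background cannot be told apart in Type 1. In Type 2 the high-background libraries were TAM depleted 3 and 4 and Control 1 and 3. Of 24 macrophage and microglia genes, 5 fell in Type 2 (limma-trend adjusted p under 0.05), where 1.24% of all genes tested did. Adgre1 lost this call in 5 of 28 alternative fits, Fcgr3 and Ptprc in 9 each, Fcer1g in 15, and Cd14 in 19 of 27. The mean log2 level of the list lay between 6.41 and 7.67 in Type 2 TAM depleted tumours, below the 7.75 to 8.85 of Type 2 Control tumours. In Type 1 none of the 24 passed by limma-trend (8019 of all genes had an unadjusted p under 0.05), and the list means overlapped, at 6.15 to 7.04 in TAM depleted and 6.82 to 7.44 in Control tumours.

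Levels of different genes were compared per kilobase (kb) of exon, since longer transcripts collect more reads. By group mean Pdgfra was the highest of the 6, at 97.6 normalized counts per kb in Type 2 TAM depleted, 194 in Type 2 Control, 44.8 in Type 1 TAM depleted and 33.3 in Type 1 Control tumours. Pdgfd was the lowest in all 4 groups, at 10.1, 21.9, 6.46 and 8.28 per kb in the same order. Pdgfa was the largest ligand in 15 of the 16 libraries. It made up 48.2% ± 5.98 of the summed ligand level in Type 2 TAM depleted (SD, n = 4), 45.5% ± 6.0 in Type 2 Control (SD, n = 4), 41.7% ± 5.14 in Type 1 TAM depleted (SD, n = 3) and 37.2% ± 8.60 in Type 1 Control tumours (SD, n = 5). The exception was Type 1 Control 4, where Pdgfc held 37.8% and Pdgfa 24.7%. Pdgfd was the smallest share in most libraries, with group means of 7.72% to 12.9%. The summed ligand level was 153 to 188 normalized counts per kb in Type 2 Control and 54.8 to 89.2 in Type 1 Control tumours, and these groups did not overlap. In the depleted tumours it was 94.7 to 208 per kb in Type 2 and 54.4 to 108 in Type 1, with an overlap.

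Of the summed receptor level per kb, Pdgfra made up 82.2% and 82.4% in Type 2 TAM depleted tumours 1 and 3 and 54.3% and 56.7% in tumours 2 and 4, so that this group fell into a high and a low pair. Each pair held 1 high-background and 1 low-background library. In Type 2 Control tumours the share was 82.6% ± 3.79 (SD, n = 4), with all 4 libraries at 77.4% or above. Type 1 TAM depleted tumours had 64.0% to 69.8%, and Type 1 Control tumours ranged most widely, over 41.2% to 77.0%.

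**Figure D1:**
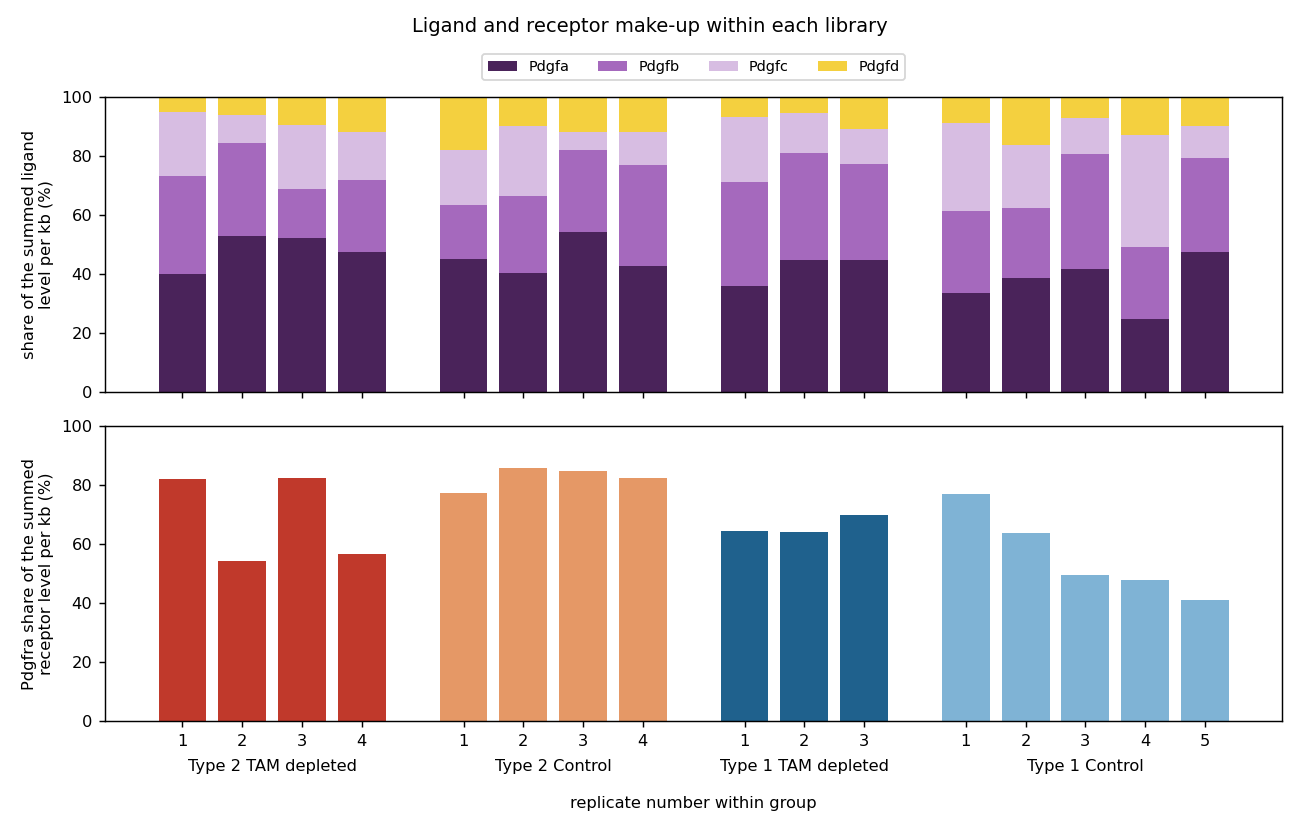
Ligand and receptor make-up of each of the 16 libraries, by group and replicate number; the upper bars divide the summed ligand level per kb among Pdgfa, Pdgfb, Pdgfc and Pdgfd (%), and the lower bars give the share of Pdgfra in the summed receptor level per kb (%). Pdgfa is the largest ligand in 15 libraries, and Type 2 TAM depleted tumours 2 and 4 have a Pdgfra share of 54.3% and 56.7% where tumours 1 and 3 have 82.2% and 82.4%.

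The comparison of Type 2 Control with Type 1 Control tumours asks how the models differ without depletion. Pdgfra and Pdgfa rose in Type 2, and all 6 PDGF genes had a positive log2 fold change, with a median of 1.20 against -0.23 over all genes tested. Of 26463 genes tested, 3.09% passed a limma-trend adjusted p of 0.05, and 2.28% passed as higher in Type 2. Without overlap between the groups of libraries were 6.95% of all genes, 5.03% as higher in Type 2, and among the PDGF genes Pdgfa and Pdgfd. After depletion 0 of the 6 passed in Type 2, where 3.61% of all genes did, and 0 passed in Type 1, where 0.0% did. In Type 1 the libraries were without overlap for 39.1% of all genes and for 0 of the 6. Between the depleted tumours of the models 0 of the 6 passed (0.185% of all genes), and the difference between the depletion responses passed for 0 of 6 (0.0% of all genes, of which 2666 had an unadjusted p under 0.05 by limma-trend). The comparisons share groups of libraries with each other, so their directions are not separate evidence.

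**Figure D2:**
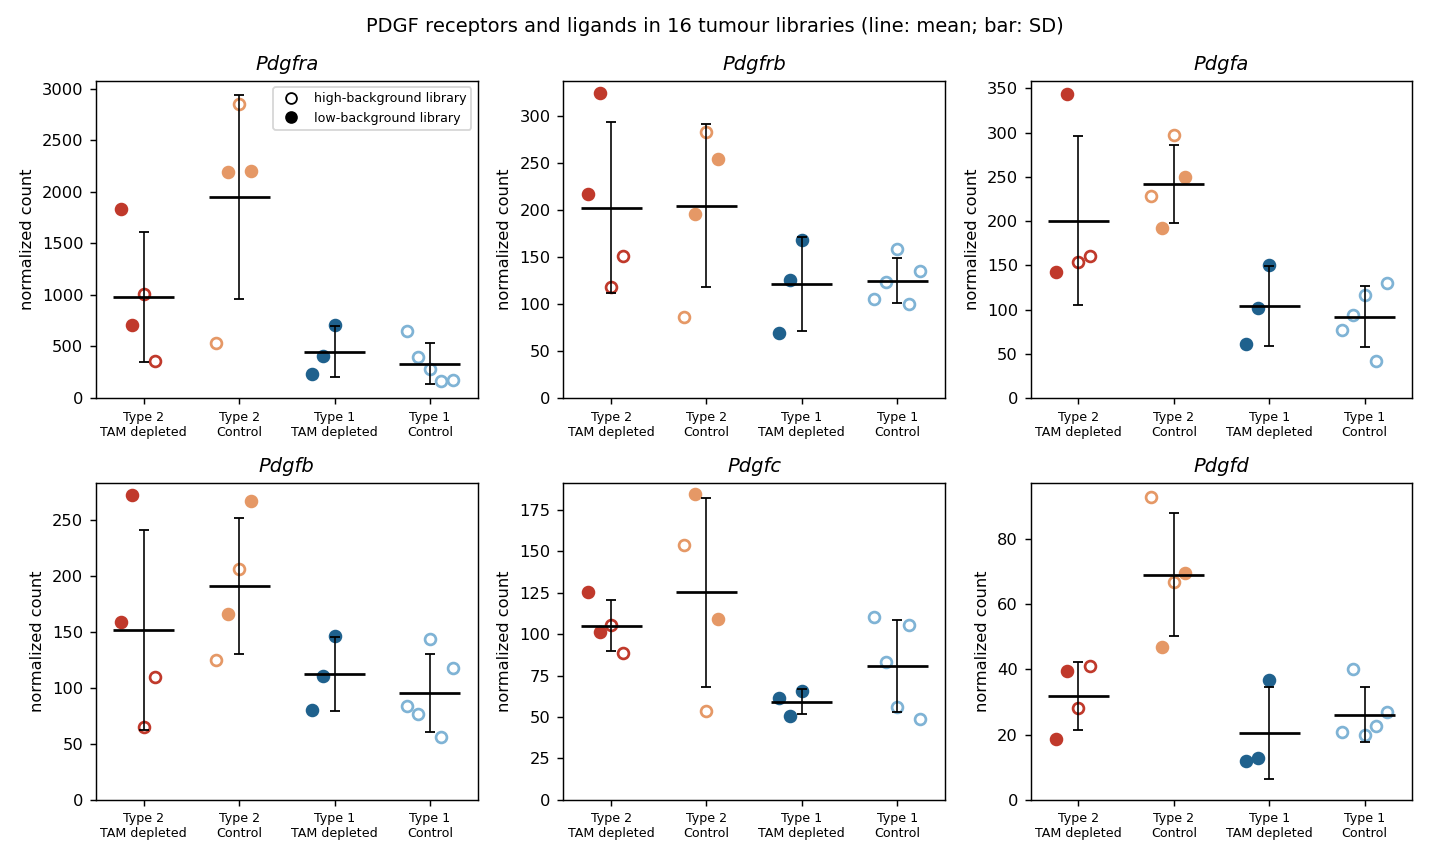
Normalized count of each PDGF gene (vertical axis, linear, from 0) in the 16 libraries by group, with open points for high-background and filled points for low-background libraries; lines are group means and bars are SD (n = 4, 4, 3 and 5 from left to right). For Pdgfa and Pdgfd the Type 2 Control points lie above all Type 1 Control points, and for Pdgfra 3 of the 4 Type 2 Control points do, with Type 2 Control 1 at 536.

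Pdgfra encodes the alpha receptor (chr5:75152292-75198215, plus strand, GRCm38). Of the PDGF genes it spanned the widest range of levels, 17.0-fold between the lowest and the highest library. It stood at the 93.8th percentile of all genes by mean level, against the 40.8th for Pdgfd. RefSeq promoter windows (GRCm38.p6) matched 4 of the 6 genes, Pdgfra, Pdgfa, Pdgfc and Pdgfd. The windows of the 2 genes that rose in Type 2 Control tumours are printed with their descriptions, and that of Pdgfd, which did not overlap between the controls. Each was searched on both strands for the GC box core GGGCGG, the CACCC box core, which reads CCACCC, and the TATA box core TATAAA. The 250 bases before the Pdgfra start lie at chr5:75152001-75152250 on the plus strand, and capitals mark 2 CCACCC matches that overlap each other.
Pdgfra: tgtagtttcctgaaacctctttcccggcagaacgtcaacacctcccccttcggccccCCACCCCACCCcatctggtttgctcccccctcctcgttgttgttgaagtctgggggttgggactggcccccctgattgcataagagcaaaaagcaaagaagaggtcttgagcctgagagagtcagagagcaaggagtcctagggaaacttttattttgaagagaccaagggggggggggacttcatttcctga
CCACCC was present in 28.1% of all 32851 windows of this length, and GGGCGG and TATAAA were not found in the Pdgfra window.

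Pdgfra had normalized counts of 1836, 706, 1011 and 361 in Type 2 TAM depleted tumours 1 to 4, against 536, 2195, 2851 and 2197 in Type 2 Control tumours 1 to 4. In Type 1 it had 229, 407 and 712 in TAM depleted tumours 1 to 3, against 646, 396, 285, 167 and 173 in Control tumours 1 to 5. Type 2 Control tumours 2, 3 and 4 stood above every Type 1 library, while Type 2 Control 1, the shallowest library, lay inside the Type 1 Control range with 150 reads. The means were 1945 ± 989 in Type 2 Control (SD, n = 4) and 333 ± 198 in Type 1 Control tumours (SD, n = 5). The mean log2 levels differed by 2.49 (SE 0.56, limma-trend adjusted p = 0.0190; 5.63-fold on the log2(count + 1) scale). The 2-sided exact permutation p for the gene was 0.0238.

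That call depended on single libraries. Without Type 2 Control 1 the log2 fold change was 3.03 (limma-trend adjusted p = 0.00321). The gene no longer passed by limma-trend without Type 2 Control 2, 3 or 4 (adjusted p = 0.0537, 0.0801 and 0.0597) or without Type 1 Control 4 or 5 (adjusted p = 0.0615 and 0.0579). With the background set as a block the log2 fold change was 2.06 (adjusted p = 0.0551), and among high-background libraries alone it was 2.08 (adjusted p = 0.0974). The block took its background effect from the Type 2 libraries, since no Type 1 group held both background sets. Gm42802 and Gm42803 on the opposite strand overlap exons of Pdgfra, and reads there cannot be assigned to a strand. In bulk tumours more cells that carry a transcript and more of it per cell cannot be told apart.

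In the other comparisons the Pdgfra groups overlapped. Type 2 TAM depleted tumours averaged 978 ± 631 against 1945 ± 989 in Type 2 Control (SD, n = 4 each), and the mean log2 level differed by -0.99, with a 95% interval of -2.24 to 0.25 (limma-trend adjusted p = 0.402). The value was -1.03 among the high-background and -0.95 among the low-background libraries. In Type 1 the depleted tumours averaged 449 ± 244 (SD, n = 3) and the controls 333 ± 198 (SD, n = 5), a log2 fold change of 0.47 (95% interval -0.82 to 1.76, limma-trend adjusted p = 0.582). The difference of these responses, Type 2 minus Type 1, was -1.46 (SE 0.85, 95% interval -3.25 to 0.33, limma-trend adjusted p = 0.520). With the background set as a block it was -0.59, a value that applies the background effect of Type 2 to Type 1. Between the depleted tumours, Type 2 minus Type 1, the log2 fold change was 1.03 (SE 0.64, limma-trend adjusted p = 0.531).

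Pdgfrb encodes the beta receptor of pericytes and other mural cells (chr18:61045150-61085061, plus strand). Its levels were 118 to 324 in Type 2 TAM depleted, 85.8 to 282 in Type 2 Control, 69.1 to 168 in Type 1 TAM depleted and 99.5 to 159 normalized counts in Type 1 Control tumours, and all groups overlapped. Depletion left the mean of Type 2 within 1 SD, at 202 ± 91.1 in TAM depleted and 205 ± 87.0 in Control tumours (SD, n = 4 each), with a log2 fold change of 0.01 whose 95% interval of -0.83 to 0.86 allows a change of either sign. The sign of this value turned in several alternative fits. Between the controls, Type 2 minus Type 1, the log2 fold change was 0.60 (SE 0.38, limma-trend adjusted p = 0.526), with 3 of 4 Type 2 libraries above and 1 below all Type 1 Control libraries.

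Csf1r, the receptor gene that macrophages need to survive, begins 15.5 kb beyond the end of Pdgfrb. Its normalized count was 165 to 457 in Type 2 TAM depleted, 250 to 1172 in Type 2 Control, 146 to 247 in Type 1 TAM depleted and 195 to 422 in Type 1 Control tumours. It had log2 fold changes of -1.10 after depletion in Type 2 (limma-trend adjusted p = 0.194), -0.46 in Type 1 (adjusted p = 0.478) and 1.28 between the controls (adjusted p = 0.132). The value in Type 2 was -0.25 among the high-background and -1.95 among the low-background libraries, and that between the controls was 0.44 among high-background libraries.

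Pdgfa encodes the A chain, which binds the alpha receptor alone (chr5:138976014-138997370, minus strand). The library kit does not mark strand, and the antisense gene 6330403L08Rik (chr5:138995056-139000577) overlaps the start of Pdgfa, so reads there cannot be assigned to either strand. The 157 bases of its RefSeq window that lie outside Pdgfa exons are at chr5:138995038-138995194, minus strand, and capitals mark the 139 bases inside the span of the antisense gene.
Pdgfa: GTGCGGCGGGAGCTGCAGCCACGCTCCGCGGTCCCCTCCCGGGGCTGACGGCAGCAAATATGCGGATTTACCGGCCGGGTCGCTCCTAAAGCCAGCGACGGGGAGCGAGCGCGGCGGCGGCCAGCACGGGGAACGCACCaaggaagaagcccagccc
None of the 3 motifs was found in these 157 bases, where GGGCGG was present in 17.6% of all windows cut to this length.

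Pdgfa had normalized counts of 143, 343, 154 and 161 in Type 2 TAM depleted tumours 1 to 4, against 229, 192, 297 and 249 in Type 2 Control tumours 1 to 4. In Type 1 it had 60.7, 102 and 151 in TAM depleted tumours 1 to 3, against 76.4, 93.3, 116, 42.2 and 130 in Control tumours 1 to 5. Every Type 2 Control library stood above every library of Type 1, and TAM depleted tumour 2 of Type 2 stood highest of all. The control means were 242 ± 44.0 in Type 2 (SD, n = 4) and 91.6 ± 34.4 in Type 1 (SD, n = 5), and the mean log2 levels differed by 1.47 (SE 0.36, 2.77-fold; adjusted p = 0.0342 by limma-trend). The 2-sided exact permutation p was 0.00794, the smallest that 126 splits can give. 6330403L08Rik averaged 113 ± 39.4 in Type 2 Control and 59.1 ± 17.1 in Type 1 Control tumours, with overlap (log2 fold change 0.89, limma-trend adjusted p = 0.283).

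The rise of Pdgfa did not pass by limma-trend without Type 2 Control 3 or 4 (adjusted p = 0.111 and 0.0826) or without Type 1 Control 1, 2 or 4 (adjusted p = 0.0767, 0.0673 and 0.0940). It was 1.41 with the background set as a block (adjusted p = 0.0625) and 1.60 among high-background libraries alone (adjusted p = 0.0519). After depletion the log2 fold change was -0.35 in Type 2 (95% interval -1.17 to 0.46, limma-trend adjusted p = 0.652), with 3 of 4 depleted libraries below all controls and tumour 2 above them. That value was -0.73 among the high-background and 0.018 among the low-background libraries. In Type 1 it was 0.19 (95% interval -0.65 to 1.03, adjusted p = 0.741). Between the depleted tumours, Type 2 minus Type 1, it was 0.93 (SE 0.41, limma-trend adjusted p = 0.383), with 3 of 4 Type 2 libraries above all of Type 1.

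Pdgfb encodes the B chain, the ligand of both receptors that endothelial cells make (chr15:79995874-80014977, minus strand). The antisense gene Gm41361 overlaps its exons, so reads there cannot be assigned to a strand, and the same holds for Gm16000 at Pdgfc. Pdgfb ranged over 64.7 to 272 normalized counts in Type 2 TAM depleted, 125 to 267 in Type 2 Control, 79.7 to 146 in Type 1 TAM depleted and 55.8 to 144 in Type 1 Control tumours. The control means were 191 ± 60.4 in Type 2 (SD, n = 4) and 95.3 ± 35.0 in Type 1 (SD, n = 5), with 3 of 4 Type 2 libraries above all of Type 1 Control. The log2 fold change was 1.02 (SE 0.39, limma-trend adjusted p = 0.219), or 0.60 with the background set as a block. It was -0.47 after depletion in Type 2 (95% interval -1.34 to 0.40, adjusted p = 0.578 by limma-trend) and 0.26 in Type 1 (95% interval -0.63 to 1.16). The value in Type 2 was -0.92 among the high-background and -0.018 among the low-background libraries, and lay between -0.81 and -0.13 with 1 library left out.

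Pdgfc encodes a ligand of the alpha receptor that is secreted with a CUB domain and becomes active once proteases cut it off (chr3:81036416-81214040, plus strand). It was the least variable of the 6 across libraries, with 48.7 to 185 normalized counts and an SD of 0.58 on the log2 scale, against 1.32 for Pdgfra. Type 2 TAM depleted tumours had 88.5 to 126 and Type 1 TAM depleted tumours 50.8 to 65.9, without overlap. The difference was 0.81 on the log2 scale (SE 0.40, adjusted p = 0.430 by limma-trend), and the 2-sided exact permutation p of 0.0286 is the smallest that 35 splits can give. Groups of libraries were without overlap for 9.07% of all genes in this comparison, 3.3% as higher in Type 2. Between the controls the ranges overlapped, at 53.4 to 185 in Type 2 and 48.7 to 111 in Type 1 (log2 fold change 0.56, adjusted p = 0.525). Depletion gave -0.12 in Type 2 and -0.38 in Type 1 (limma-trend adjusted p = 0.876 and 0.484).

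Pdgfd encodes a latent ligand of the beta receptor with the same CUB domain design (chr9:6168584-6378850, plus strand). Its intron holds Ddi1 on the opposite strand. The 250 bases before its RefSeq start lie at chr9:6168236-6168485, plus strand, and capitals mark the only match to the 3 motifs, TATAAA, which was present in 12.4% of all windows. The match lies nearer the far end of the window than the start, and whether it acts as a TATA box was not tested.
Pdgfd: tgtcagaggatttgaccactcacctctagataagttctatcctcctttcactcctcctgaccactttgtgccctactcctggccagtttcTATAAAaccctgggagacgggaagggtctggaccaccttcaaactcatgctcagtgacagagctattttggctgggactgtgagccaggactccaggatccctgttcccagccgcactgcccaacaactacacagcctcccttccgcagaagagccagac
It was the lowest of the 6 by level, with 15 to 123 reads per library, so most of its values carry more counting error than those of the other PDGF genes. In Type 2 Control 1 Pdgfrb had fewer reads (24 against 26), and in Type 2 Control 3 Pdgfc did (60 against 75).

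Pdgfd had normalized counts of 18.8, 39.5, 28.0 and 41.0 in Type 2 TAM depleted tumours 1 to 4, against 92.9, 46.7, 66.8 and 69.7 in Type 2 Control tumours 1 to 4. In Type 1 it had 11.8, 12.7 and 36.7 in TAM depleted tumours 1 to 3, against 20.7, 40.2, 19.997, 22.6 and 27.1 in Control tumours 1 to 5. Type 2 Control was the highest group, without overlap with any of the other 3. The mean after depletion in Type 2 was 31.8 ± 10.4 against 69.0 ± 18.9 in controls (SD, n = 4 each), and the mean log2 level differed by -1.12 (SE 0.42, 2.17-fold lower, 95% interval ending at -0.23). It did not pass over all genes (limma-trend adjusted p = 0.159), and the 2-sided exact permutation p of 0.0286 is the smallest that 70 splits can give. Without overlap in this comparison were 7.25% of all genes, 3.39% as lower after depletion.

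The Pdgfd difference after depletion in Type 2 was -1.19 among the high-background and -1.04 among the low-background libraries, and it lay between -1.29 and -0.89 when any 1 library was left out. Between the controls, Type 2 minus Type 1, Pdgfd differed by 1.38 on the log2 scale (SE 0.40, adjusted p = 0.0757 by limma-trend; exact permutation p = 0.0159). It passed in 2 of 27 alternative fits, among them the fit with the background set as a block (1.57, limma-trend adjusted p = 0.0486). It did not pass in any of the 16 fits with 1 library left out. Among high-background libraries alone it did not pass either (1.61, limma-trend adjusted p = 0.0589). In Type 1 the difference after depletion was -0.48 (95% interval -1.40 to 0.43, adjusted p = 0.430), with 2 of 3 depleted libraries below all controls. The difference of the responses was -0.63 (SE 0.60, limma-trend adjusted p = 0.636), so the responses of the models were not shown to differ. This value lay between -0.91 and -0.13 with 1 library left out, and was -1.01 with the background set as a block.

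**Figure D3:**
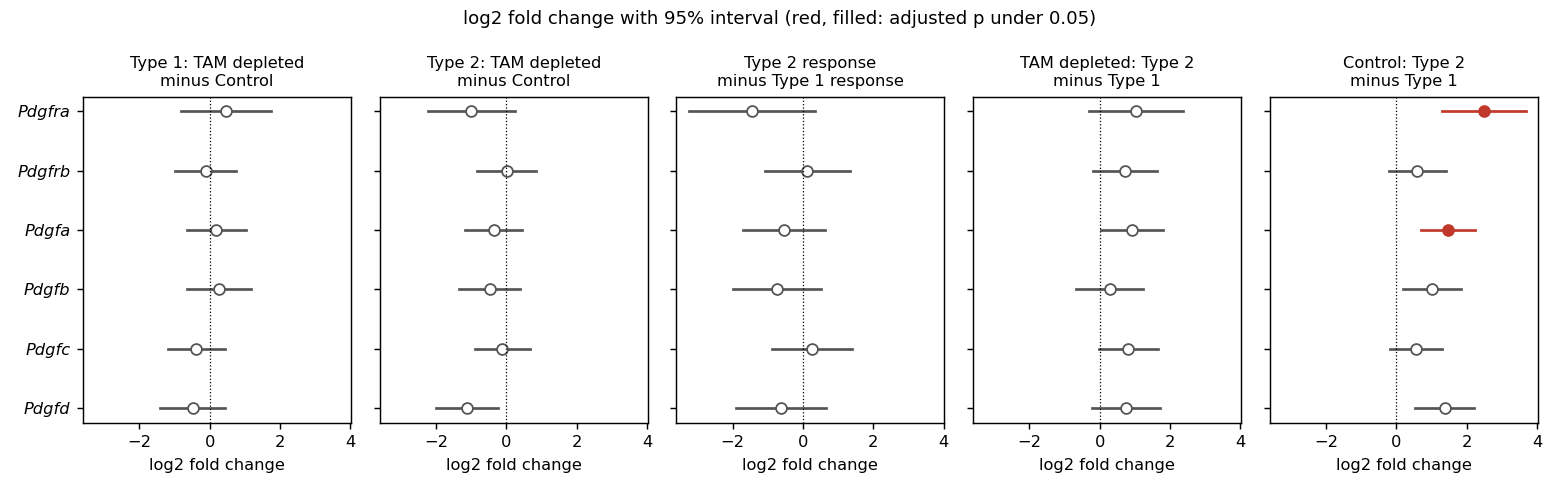
Log2 fold change of the 6 PDGF genes (points) with 95% intervals (lines) from limma-trend. The 5 comparisons have 1 panel each on a shared scale of log2 units, and filled red points have an adjusted p under 0.05. The filled points are Pdgfra (2.49) and Pdgfa (1.47) between the controls, and the interval of Pdgfd after depletion in Type 2 ends at -0.23.

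Genes that act on the ligands or carry the receptor signal were described as lists, by counts and medians alone. Of all genes tested, 2.28% rose in Type 2 Control over Type 1 Control, and the median log2 fold change was -0.23. Of 26 signalling genes, 3 rose there and 0 fell (median 0.17). They were the docking protein gene Gab1 (1355 ± 636 in Type 2, SD, n = 4, and 322 ± 88.2 normalized counts in Type 1, SD, n = 5; log2 fold change 2.01, limma-trend adjusted p = 0.00523), the transcription factor gene Stat3 (1.38) and the adaptor gene Shc1 (1.10). Of 9 genes for ligand activation and binding, 2 rose. Pcsk6, a proprotein convertase, averaged 428 ± 124 in Type 2 and 117 ± 39.2 in Type 1 (log2 fold change 1.90, limma-trend adjusted p = 0.00204), and Sparc, a matrix protein that binds the B chain, had 2.23. Of 8 genes that restrain the receptors 1 rose, the phosphatase gene Ptprj (1.45), which lost its call in 15 of 27 alternative fits. Of the same 27, Shc1 lost its call in 8, Stat3 in 5, Gab1 and Sparc in 1 each and Pcsk6 in 0.

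Among 17 transcriptional targets and feedback genes of the RAS and ERK pathway, 14 had a positive log2 fold change between the controls. The median was 0.87 against -0.23 over all genes, and 2 rose, where 2.28% of all genes did. Ier3, an early response gene, averaged 432 ± 154 in Type 2 (SD, n = 4) and 44.0 ± 14.7 in Type 1 (SD, n = 5; log2 fold change 3.25, limma-trend adjusted p = 0.000518). Dusp6, the phosphatase that switches ERK off, had 1.52 and lost its call in 13 of 27 alternative fits. After depletion in Type 2, Ier3 fell by 2.41 and Epha4, an ephrin receptor gene, rose by 2.56. Of the other 15 genes 0 passed, where 3.61% of all genes did. Of 28 alternative fits, Ier3 lost this call in 3 and Epha4 in 17. Of the lists for signalling, activation, restraint and ERK targets, 0 genes passed by limma-trend in Type 1 depletion, between the depleted tumours or for the difference of responses. Their medians in Type 1 depletion were 0.52, -0.16, 0.44 and 0.54, against -0.06 over all genes, and treatment and background cannot be told apart there.

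Of 14 genes for related receptors and ligands 1 rose and 0 fell between the controls, where 2.28% of all genes rose (median of all genes -0.23). Vegfa, the vessel growth factor from the same protein superfamily, was the gene that rose (2251 ± 381 in Type 2 and 607 ± 189 in Type 1, log2 fold change 1.94, limma-trend adjusted p = 0.0113), and the list median was 0.08. Vegfa fell by 1.65 after depletion in Type 2 (limma-trend adjusted p = 0.0414), a call lost in 15 of 28 alternative fits, 11 of them with 1 library left out. Kit, the sister receptor gene 376.7 kb beyond Pdgfra, had a log2 fold change of 0.15 between the controls (limma-trend adjusted p = 0.835). Of 10 genes in the same stretch of chromosome 5 as Pdgfra, 9 had a positive value between the controls (median 0.66). Scfd2 rose (0.94), and lost its call in 14 of 27 alternative fits.

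Marker genes of the cells known to carry PDGF genes were set beside them. All 14 oligodendrocyte precursor genes had a positive log2 fold change in Type 2 Control over Type 1 Control (median 1.70, all genes -0.23). Of all genes 2.28% rose, and of these 14 genes 3 did. They were the lineage factor gene Sox10 (3232 ± 1284 in Type 2, SD, n = 4, and 151 ± 91.0 in Type 1, SD, n = 5; log2 fold change 4.56), the NG2 proteoglycan gene Cspg4 (3.68) and the receptor gene Gpr17 (3.85), with limma-trend adjusted p of 9.3e-05, 0.00116 and 0.00689. The list's summed level was 12922 to 71217 normalized counts in Type 2 Control and 3078 to 9927 in Type 1 Control tumours, and none of its genes was at 0 in any library. The log2 level of Pdgfra minus the list's mean was 0.85 ± 0.67 in Type 2 Control and 0.40 ± 0.41 in Type 1 Control tumours, and these ranges overlapped (-0.08 to 1.38 and -0.20 to 0.83). Between the depleted tumours the same 14 genes were positive as well (median 1.79, all genes 0.11), with 0 past the threshold. After depletion in Type 2 Sox10 fell by 2.01 (limma-trend adjusted p = 0.0424), 0 of the other 13 passed, and the list median was -0.33 (all genes -0.21). That Sox10 call was lost in 13 of 28 alternative fits, while the 3 calls between the controls held in all 27. The part of these cells in the Pdgfra values was not tested.

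For the vessel wall, the mural list held 13 tested genes (median 0.45 between the controls, all genes -0.23). Mcam rose there (1090.8 ± 385 in Type 2 and 91.5 ± 29.9 in Type 1, log2 fold change 3.55). Of the list 0 others passed, where 2.28% of all genes rose. The summed level of the list, which carries the Mcam rise, was 2445 to 5262 in Type 2 Control and 1452 to 1903 in Type 1 Control tumours. Of the 13 genes, 10 had a positive and 3 a negative log2 fold change between the controls. Mcam fell by 1.75 after depletion in Type 2, where the list median was -0.55 (all genes -0.21) and Pdgfrb had 0.01. The endothelial list of 14 genes had 0 past the threshold in all 5 comparisons by limma-trend, with a median of 0.28 between the controls beside 1.02 for Pdgfb. None of the mural or endothelial genes tested was at 0 in any library. Of 13 fibroblast genes, which include other carriers of both receptors, 10 were positive between the controls (median log2 fold change 1.08, all genes -0.23). The other 3 were negative, and Postn (3.04) and Col3a1 (2.25) rose. Lum and Col3a1 did so between the depleted tumours (2.62 and 2.88), while Postn and Col6a3 fell after depletion in Type 2, with log2 fold changes of -2.24 and -2.11. The list medians there were 1.13 (all genes 0.11) and -0.56 (all genes -0.21). After depletion in Type 1 the list median was -1.43 (all genes -0.06), with 12 of 13 lower and 0 past the threshold. Treatment and background cannot be told apart in Type 1. Between the depleted tumours Lum lost its call in 8 and Col3a1 in 6 of 27 alternative fits, and after depletion Postn lost its call in 5, Mcam in 5 and Col6a3 in 14 of 28. The summed fibroblast level was 5044 to 9451 in Type 2 Control and 1523 to 2312 in Type 1 Control tumours, and 1 of its genes was at 0 in some Type 2 TAM depleted library. The part of these cells in the receptor values was not tested.

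**Figure D4:**
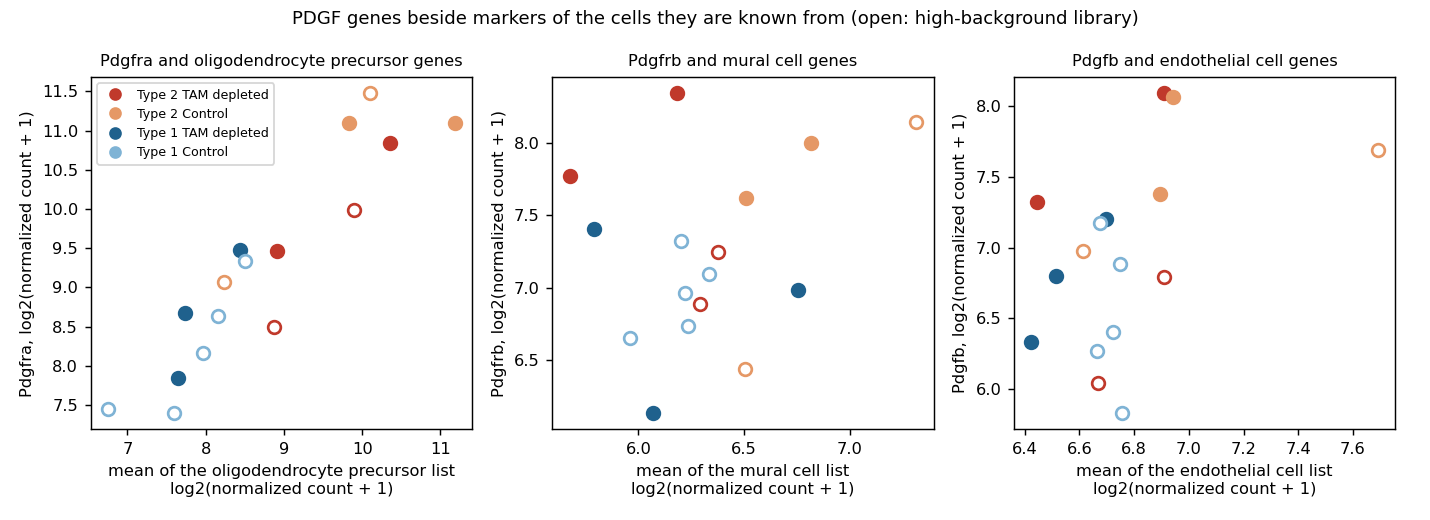
Log2(normalized count + 1) of Pdgfra, Pdgfrb and Pdgfb (vertical axes) against the mean of the oligodendrocyte precursor, mural and endothelial lists in the same library (horizontal axes, same unit), 1 point per library, coloured by group and open for high-background libraries. For each of the 3 genes the library with its highest level is not the one with the highest list mean; Pdgfra peaks in Type 2 Control 3 (11.5) and its list in Type 2 Control 2 (11.2).

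Other cell types differed between the groups in which the PDGF genes were compared. Between the controls 3 of 15 neuron genes fell in Type 2 (list median -1.97), and S100b alone of 12 astrocyte genes rose (2.71, list median -0.39). Over all 26463 genes tested, 603 rose and 216 fell there (median -0.23). The 24 macrophage genes all had a positive value (median 1.19) with 0 past the threshold by limma-trend. Of 20 proliferation genes 0 passed (median -0.28). After depletion in Type 2, 8 neuron genes rose (median 3.49, as Snap25 with 4.58), as did the astrocyte genes Aqp4 (2.04) and Ntsr2 (2.18). Over all 26463 genes tested, 627 rose and 329 fell after this depletion (median -0.21). Of 28 alternative fits, Snap25 lost this call in 3, Aqp4 in 11 and Ntsr2 in 8. The part of neurons, astrocytes and macrophages in the PDGF values was not tested.

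The PDGF genes varied together across the 16 libraries to unequal degrees. The log2 levels of Pdgfrb and Pdgfb had a Pearson r of 0.85, Pdgfa and Pdgfb 0.83, Pdgfrb and Pdgfa 0.74 and Pdgfa and Pdgfd 0.72. Pdgfra had 0.67 with Pdgfrb and 0.67 with Pdgfa, and Pdgfc stood apart, at 0.04 to 0.41 with the other 5. These are descriptions over 16 libraries that share groups and background sets. Against the log10 of the olfactory and vomeronasal receptor reads per M, r ran from -0.48 (Pdgfb) to 0.22 (Pdgfd).

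Among 10559 other named genes with a mean of 100 or more, those most like each PDGF gene over the 16 libraries were listed by Pearson r of log2 levels. For Pdgfra they were Rlbp1 (0.95), Syde1, Limd1, Chadl and Ltbr (0.93 each). Those for Pdgfrb were Ston2 (0.94), the VEGF receptor gene Flt1 (0.91), the PI3 kinase gene Pik3cb (0.90), Tctn1 and Tmem104. Pdgfa was followed by Kank2 (0.89), H2-T24, B3glct, Fxyd1 and Yap1, and Pdgfb by Ift122 (0.93), Tenm3, Tulp3, Lamb2 and Fryl. For Pdgfc the highest was Gk (0.85), then Prrg1, Pcdh11x, Kctd12b and Wdr44. Pdgfd had Alpk1 (0.90), Cdh19, Sh3tc2, Fxyd1 and Gli3, so Fxyd1 was listed for both Pdgfa and Pdgfd.

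Over the 8 Type 2 libraries alone the lists changed, and Tenm3 for Pdgfb (0.97) was the only gene on both. Each list holds the highest of 10559 values over few libraries. A high r can be reached by such selection alone, and no relation was tested. Pdgfra was then most like Mtss1 (0.98), Plekhg2, its chromosome neighbour Scfd2 (0.97), Efs and Ints9. Pdgfrb had Plbd2 (0.99), Zbtb24, Tmem214, Sash1 and Nfic, and Pdgfa had the integrin gene Itga3 (0.97), Plekha7, Bnip3, Slc45a4 and Unc5c. After Tenm3, Pdgfb had Dip2b, Chd9, Rictor and Kifc3. Pdgfc had Wdr75 (0.97), Slc35a1, Lrrcc1 and Srek1ip1, and Pdgfd the integrin gene Itga2 (0.96), Pms2, Ifi213, Sla and Rassf4.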

How the data were processed

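Bulk RNA-seq of 16 tumours was used, 1 library each, with groups and replicate numbers from the sample titles. Per the labels' protocols, TRIzol and the miRNeasy Micro kit gave the RNA, and SMART-Seq v4, a full-length cDNA kit that does not mark strand, the libraries. Per the submitters' processing notes, STAR 2.7.8a, the build GRCm38 and DESeq2 were used; which annotation and counter they went with was not stated. The authors deposited gene values on a log2 scale. The planned tests assumed linear normalized values, but the values proved to be variance-stabilized. They were inverted from the floor of the table to normalized counts, and every value (100%) then came out as a whole number of reads (tolerance 0.05), with 1 size factor per library. Background reads count toward a library's depth (Gm10800 alone took 0.0491% to 58.2% of reads), so fewer reads stand behind the other genes of such a library.

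The 26463 genes tested reached 10 normalized counts in 3 or more libraries. They were fitted on log2(normalized count + 1), a scale on which changes of low genes come out too small. The test was limma-trend (limma 3.58.1, R 4.3.3), 1 fit of 4 group means over 16 libraries (12 residual degrees of freedom, prior 4.74), 2-sided, adjusted by Benjamini-Hochberg across the whole table, with calls under 0.05. Limma-voom on the recovered reads was an alternative. Single genes were also compared by exact permutation of the group labels. Every pair of libraries in a group differed by more than sampling noise (chi-square per degree of freedom 9.43 or more). Depth was 4.21 to 18.3 M reads, and counting intervals would cover counting error only. 

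The PDGF genes and the 14 gene lists were chosen with earlier results of these data known. Named were the 6 PDGF genes, Csf1r and Kit, up to 4 genes of a list with the smallest p among those past the threshold, and the 5 most correlated genes of each PDGF gene, of which 1 is not reported here; 6330403L08Rik was added after its overlap with Pdgfa was seen. The list genes Nherf1, Fosl1, Tagln and Twist1 were not analysed here. Gene models and lengths are those of GENCODE vM21 (GRCm38, 1-based), and promoter sequences are RefSeq's. Alternatives were pseudocounts, filters, scaling, library weights, blocks, subsets of libraries and leaving out each library.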

Additional observations from a re-analysis of the deposited data

Results flagged for a closer look

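Among 24 sets of 4 or 5 libraries of 1 gene and group, 2 held a library far from the others, where chance alone flags about 1 set in 20. Pdgfra in Type 2 Control 1 had a normalized count of 536 (150 reads), while the other 3 Type 2 Control tumours had 2195 to 2851; its gap to the nearest was 0.843 of the group's range on the log2 scale, past the critical 0.829. This library had the fewest reads (4.21 M) and the most olfactory and vomeronasal receptor reads (8650 per M), and its oligodendrocyte precursor list mean of 8.23 was also the lowest of the group, whose other libraries had 9.83 to 11.2. Without it the Pdgfra difference between the controls was 3.03 in place of 2.49. Pdgfa in Type 2 TAM depleted 2 had 343 (574 reads), while the other 3 had 143 to 161, a gap of 0.866 of the range. Without this library the log2 fold change of Pdgfa after depletion in Type 2 was -0.65 (limma-trend adjusted p = 0.564) in place of -0.35. It also had the highest neuron list mean of the group (12.6, others 9.93 to 10.9). The part of depth, background and neurons in these values was not tested.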

How the results depend on the processing

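Over the 6 PDGF genes and 5 comparisons, 750 of 798 alternative values kept their direction and side of the threshold, 17 lost the call, 5 gained one and 26 changed sign. Upper quartile scaling moved the median of all genes to -0.50 in place of -0.06 after depletion in Type 1, to -0.47 in place of -0.21 in Type 2 and to -0.35 in place of -0.23 between the controls, where all 6 PDGF genes stayed positive. It moved the share of higher calls to 47.9% in place of 65.6% in Type 2 depletion, and to 55.4% in place of 73.6% between the controls (38.5% by limma-voom, 40.3% with library weights).

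The number of PDGF genes past the threshold between the controls was 2, and became 1 under upper quartile scaling, 5 with library weights, 1 with the background set as a block, 0 with the replicate block, 0 among high-background libraries alone and 0 to 2 when 1 library was left out. In Type 1 depletion library weights gave 1 call, Pdgfd. Of all genes, Type 1 depletion called 13721 with library weights, 9389 when only the groups compared were fitted and 0 to 2 with 1 library left out, where 0 were called. Type 2 depletion (956) called 436 with library weights, 2635 with the background block, 297 with the replicate block, 580 among high-background and 0 among low-background libraries, 0 when only the groups compared were fitted, and 100 to 1258 with 1 library left out. The controls (819) gave 2343 by limma-voom, 6559 with library weights, 347 with the replicate block and 510 to 1141 with 1 library left out. The depleted tumours (49) gave 429 with library weights, 215 with the background block, 16 with the replicate block, 20 among low-background libraries, 17 when only the groups compared were fitted and 12 to 234 with 1 library left out. The difference of responses (0) gave 748 with library weights, 166 with the background block and 1 with the replicate block. The cause was not tested.

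Some signs turned, among them that of Pdgfb in the difference of responses (-0.73) and that of Pdgfra in Type 1 depletion (0.47). In Type 1 depletion they were Pdgfra (-0.071 with library weights, -0.40 with the background block), Pdgfa (-0.26 under upper quartile scaling, -0.061 with library weights, -0.12 to 0.53 with 1 library left out), Pdgfb (-0.18 under upper quartile scaling, -0.58 with the background block) and Pdgfrb (-0.40 to 0.24 with 1 library left out). In Type 2 depletion they were Pdgfrb (-0.28 under upper quartile scaling, -0.091 by limma-voom, -0.41 with library weights, -0.22 among high-background libraries, -0.36 to 0.24 with 1 left out), Pdgfa (0.018 among low-background libraries), Pdgfc (0.091 among high-background libraries, -0.48 to 0.11 with 1 left out) and Kit (-0.48 to 0.051). Between the controls Kit turned (-0.17 with the background block, -0.16 among high-background libraries, -0.10 to 0.36 with 1 left out), and between the depleted tumours Pdgfb (-0.061 to 0.62). In the difference of responses Pdgfb had 0.11 with the background block, Pdgfrb -0.25 to 0.41 and Pdgfc -0.10 to 0.49 with 1 left out. The block values of Type 1 depletion and of the difference of responses apply the background effect of Type 2 to Type 1.

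Correlations of same-numbered libraries ran from -0.67 to 0.50. In Type 2 depletion they were 0.50 and 0.30 for numbers 2 and 3, whose libraries shared a background set. For numbers 1 and 4, whose libraries differed in background, they were -0.67 and -0.60. Pairing and background cannot be told apart in these values, so whether the replicate numbers pair the libraries was not settled. With the replicate block Pdgfra had 2.31 (limma-trend adjusted p = 0.0992) and Pdgfa 1.62 (adjusted p = 0.0501) between the controls. The fits on high-background libraries alone between the controls, and on low-background libraries alone between the depleted tumours, were chosen after seeing the data. Depth limited Pdgfd most, with as few as 15 reads.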

Other observations

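The pair of Type 2 TAM depleted tumours with the higher Pdgfra share also differed from the other pair in cell cycle genes. The mean log2 level of the proliferation list was 9.11 and 9.53 in tumours 1 and 3, where Pdgfra stood at 1836 and 1011, and 6.66 and 7.55 in tumours 2 and 4, where it stood at 706 and 361. The oligodendrocyte precursor list followed the same split, at 10.4 and 9.89 in tumours 1 and 3 and 8.91 and 8.88 in tumours 2 and 4. In Type 1 Control the order was another one. Tumour 5 had the highest proliferation list mean (9.74) beside a Pdgfra count of 173, and tumour 1, with the highest Pdgfra count of that group (646), had 9.46. These pairs were noticed in the data and were not tested.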
